A study of Mus musculus with 4 samples.

Results

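A set of 10 genes that encode non-collagen proteins of the mesenchymal extracellular matrix were examined in nasal process (NP) tissues of E11.5 mouse embryos. They were chosen by symbol, with no threshold on their values but with earlier results of these data known. The genes are *Fn1*, *Fbn1*, *Fbn2*, *Postn*, *Vcan*, *Tnc*, *Lum*, *Dcn*, *Thbs1* and *Vtn*. Of these 10 genes, 9 were among the 13577 genes listed, and *Postn* was not analyzed here. All 9 passed the filter of a mean above 1 CPM (read counts divided by library size, with the worth of 1 read given below). Expression was measured by bulk RNA-Seq in 4 libraries, 2 titled control and 2 titled ca-*Acvr1* mutant.

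The mutants, called so below, carry in the heterozygous state the conditional transgene ca-*Acvr1(A11)*, a constitutively active form of the BMP receptor ACVR1 that Cre switches on, together with *P0-Cre*, and the controls carry *P0-Cre* without it. Both groups thus share the Cre transgene. *P0-Cre* acts in the neural crest lineage, so that surface ectoderm, central nervous tissue, endothelium and blood in the same dissection are not its targets, and the transgene is a single line. The transgene comes from a B6;129S7 line and *P0-Cre* from a C57BL/6J line, and the mice were kept on a mixed background. The number of embryos in each library is not given in the sources used here. The p-values therefore measure only the spread between these libraries, which may be technical. For its RNA-Seq comparison of these groups the paper states a larger n than the 2 libraries per group used here. The genotype entries of the libraries contradict the titles, with the transgene entered for the libraries titled control. The titles were used to name the groups, and if instead the genotype entries hold, each direction given below turns around. *Acvr1* did not settle this, at 21.5 and 23.1 CPM in control against 24.1 and 12.6 CPM in mutant libraries, a difference that did not pass the test (limma, log2 fold change −0.33, adjusted p = 0.786). It could hardly do so, since these libraries read transcript ends, and how the transgene transcript ends is not given in the sources used here. The *Acvr1* values therefore need not include the transgene.

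The mesenchyme of the facial processes comes largely from cranial neural crest cells (CNCCs), which migrate through and then build a loose, hyaluronan-rich matrix. Fibronectin and the fibrillins form the first fibers of this matrix, versican holds hyaluronan and keeps the tissue hydrated, and matricellular proteins such as thrombospondin 1 and tenascin C change how cells attach without being part of the scaffold. Small leucine-rich proteoglycans such as lumican and decorin bind collagen fibrils and become abundant as connective tissue matures. Fibrillins also hold latent growth factors of the TGF-β and BMP families in the matrix.

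Library totals ran from 1956831 to 2408827 reads, and 1 read equaled 0.415 to 0.511 CPM. Of 54308 values, 43 values in 22 genes are not whole numbers of reads, and none of these is a value of the 9 matrix genes. Such values number 3 and 8 in control and 17 and 15 in mutant libraries. The libraries came from a 3′ kit that gives about 1 read per transcript end, so that CPM was compared between genes without division by length. In mutant replicate 2, transcripts of liver and yolk sac stood apart, with *Afp* at 194 CPM against 0, 8.88 and 1.25 CPM in the other libraries and *Ttr* at 73.9 CPM against at most 2.66 CPM. *Alb*, the defining marker of liver, was at or near 0 in every library, at most 0.936 CPM. The 6 liver and plasma markers listed summed to 4.09 and 14.6 CPM in control and to 3.32 and 287 CPM in mutants. Values without this library are given below for the genes of the set whose call it changes.

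In these bulk tissues the levels of cell type markers moved with the groups. Of 11 mesenchyme markers tested, 9 were lower in mutant libraries and none was higher (limma, adjusted p under 0.05), the 3 with the smallest p, *Pdgfra*, *Prrx1* and *Alx1*, at log2 fold changes of −2.60, −1.19 and −1.13 (both mutant values of *Pdgfra* are not whole reads). The median of the list was −0.94, and its summed level was between 1234 and 1590 CPM in control and between 668 and 702 CPM in mutant libraries. Of 10 epithelium markers 2 rose, *Cdh1* and *Epcam*, which did not pass without mutant replicate 1 (limma, adjusted p = 0.102 and 0.202), nor *Cdh1* without control replicate 2 (0.0924) or *Epcam* without mutant replicate 2 (0.0832). That list had a median of 0.61 and sums of 249 to 269 against 385 to 423 CPM. All 10 neural markers had fold changes above 0, with a median of 0.44 and sums of 1317 to 1367 against 1701 to 1817 CPM, and none passed the threshold, *Sox2* coming to 0.50 (limma, adjusted p = 0.0803), which passed without control replicate 1 (limma, adjusted p = 0.00678). Of the 10 neural markers 6 were higher at an unadjusted p under 0.05. None of these defining markers was at 0 in any library. Fewer mesenchymal cells and less RNA per cell cannot be told apart in bulk tissue, and the part of these marker levels in the results below was not tested.

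Of the 9 matrix genes, *Vtn* and *Thbs1* were lower in mutant libraries and none was higher at an adjusted p under 0.05 (limma on log2(CPM + 1), adjusted over all 12462 genes tested). The mean of *Vtn* fell by 86.5% and that of *Thbs1* fell by 55.8%. *Vcan*, *Fn1* and *Fbn2*, the 3 most abundant of the set, had means within 12.5%, 8.90% and 7.08% of control and did not pass the test. Among all genes tested 0.899% were called, 0.594% lower and 0.305% higher. The median log2 fold change of the 9 genes was −0.36, beside 0.03 over all genes tested. Of the 9 genes 6 were below 0, beside 5710 of all 12462 genes tested. The smallest p of an exact permutation test over 4 libraries is 0.333, so that single genes rest on the spread limma estimates across all genes.

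**Figure D1:**
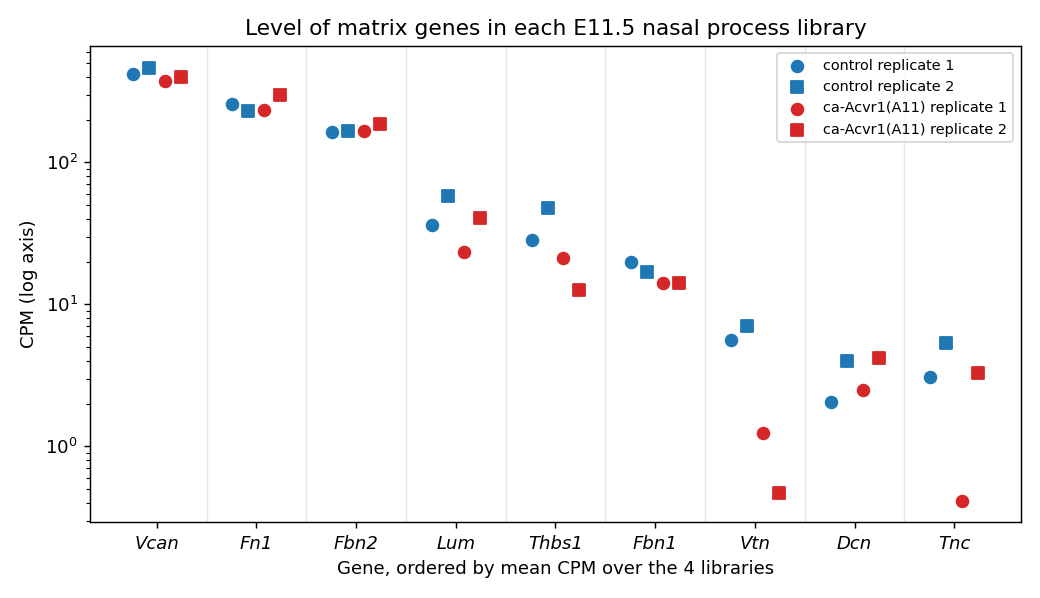
CPM on a log axis for the 9 matrix genes in each library, with control in blue and ca-Acvr1(A11) in red, replicate 1 as circles and replicate 2 as squares. Vcan, Fn1 and Fbn2 sit above 160 CPM in every library, and both Vtn values of the ca-Acvr1(A11) group lie below both control values.

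In control libraries the order by mean level was *Vcan* (444 CPM), *Fn1* (244 CPM), *Fbn2* (164 CPM), *Lum* (47.2 CPM), *Thbs1* (38.3 CPM), *Fbn1* (18.4 CPM), *Vtn* (6.36 CPM), *Tnc* (4.2 CPM) and *Dcn* (3.02 CPM). The values of the 2 control libraries overlapped between *Lum* and *Thbs1* and between *Tnc* and *Dcn*, and each other pair of neighbors was separated. By the mean of all 4 libraries *Vcan* ranked 357 among the 13577 genes and *Fn1* ranked 715, whereas *Dcn* ranked 10596 and *Tnc* 10697. *Vcan*, *Fn1* and *Fbn2* rest on at least 827, 503 and 319 reads per library, and *Vtn*, *Tnc* and *Dcn* on at most 16, 12 and 9 reads. The values of the last 3 genes thus rest on few reads.

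Most reads of such libraries fall in the last exon of a transcript, so its position in the GENCODE M21 annotation (GRCm38) was read for each gene. The submitters' processing notes name mm10, the same assembly. For *Vtn* (Entrez 22370), on the plus strand of chromosome 11 from 78499091 to 78502324, it runs from 78502138 to 78502324, and for *Thbs1* (Entrez 21825), on chromosome 2, from 118125022 to 118127133. That of *Vcan* (Entrez 13003), on the minus strand of chromosome 13, runs from 89655312 to 89657358, and that of *Fn1* (Entrez 14268), on the minus strand of chromosome 1, from 71585520 to 71586283. No exon of another annotated gene, on either strand, overlaps the last exon of any of the 10 genes. Of 9 protein-coding transcripts of *Fn1*, 7 end in this exon, as do 5 of 8 of *Vcan* and 3 of 4 of *Tnc*. The splice forms these genes are known for, which differ in internal exons, are therefore not separated by these values.

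Promoters are shown for the member with the largest fold change and for the most abundant one, since both had an entry in the RefSeq promoter table (GRCm38.p6), as did 5 of the 10 genes. Each stretch covers 250 bases before and 50 bases after the start of transcription, written 5′ to 3′. Capitals mark TATAAA or its reverse complement TTTATA, which overlap in *Vtn*. The *Vtn* stretch is chr11:78498870-78499169 (plus strand) and the *Vcan* stretch chr13:89742463-89742762 (minus strand).
Vtn: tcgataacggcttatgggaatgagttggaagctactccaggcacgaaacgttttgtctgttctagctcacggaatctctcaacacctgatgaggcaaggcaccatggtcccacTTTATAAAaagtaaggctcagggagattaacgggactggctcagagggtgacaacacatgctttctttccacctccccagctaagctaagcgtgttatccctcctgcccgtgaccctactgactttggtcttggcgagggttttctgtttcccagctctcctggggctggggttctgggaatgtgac
Vcan: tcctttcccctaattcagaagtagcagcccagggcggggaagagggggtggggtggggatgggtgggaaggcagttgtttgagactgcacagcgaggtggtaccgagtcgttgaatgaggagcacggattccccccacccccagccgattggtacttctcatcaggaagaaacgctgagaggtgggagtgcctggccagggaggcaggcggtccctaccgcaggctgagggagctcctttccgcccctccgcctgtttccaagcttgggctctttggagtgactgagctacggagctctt
On both strands TATAAA is found in 13.6% of the 32851 promoters of this length. The GC-rich SMAD motif GGCGCC (11.9% of promoters), the SMAD palindrome GTCTAGAC (0.213%) and the AP-1 motif TGACTCA (5.2%) were searched in the same way and are in neither stretch.

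Among the fiber-forming glycoproteins none passed the test. *Fn1*, which encodes fibronectin, was at 257 and 231 CPM in control and at 234 and 298 CPM in mutant libraries. The groups overlapped, and the spread of the 2 mutant libraries (SD 45.5 CPM) exceeded the difference of the means. The log2 fold change of *Fn1* was 0.11 (95% interval −0.19 to 0.41, limma adjusted p = 0.879), and it was −0.061 without mutant replicate 2. *Fbn2*, which encodes the fibrillin that predominates in embryonic microfibrils, was at 163, 166, 166 and 186 CPM in the same order of libraries. Its control values differed by very little, and its log2 fold change was 0.10 (95% interval −0.20 to 0.39, limma adjusted p = 0.908). *Fbn1*, the fibrillin of adult elastic tissue that is mutated in Marfan syndrome, was at 19.9 and 16.9 CPM in control against 14.1 and 14.0 CPM in mutant libraries. Both mutant values of *Fbn1* lay below both control values, with a log2 fold change of −0.36 (95% interval −0.91 to 0.19, limma adjusted p = 0.746). The level of *Fbn2* was thus above that of *Fbn1* in each library, and the 2 fibrillins lay on opposite sides of 0 without either passing the test.

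Of the matricellular genes, *Thbs1*, whose product binds the cell surface through CD36 and CD47 and releases TGF-β from its latent form, fell. Its values were 28.6 and 47.9 CPM in control against 21.2 and 12.6 CPM in mutant libraries. The groups did not overlap, though the highest mutant value and the lowest control value lay closer together than the 2 libraries of either group. Its log2 fold change was −1.13 (95% interval −1.68 to −0.58, limma adjusted p = 0.0330). Without control replicate 2 the log2 fold change was −0.77 (limma, adjusted p = 0.401), and without mutant replicate 2 it was −0.78 (limma, adjusted p = 0.316). The call was also lost with a pseudocount of 0.1 CPM (limma, adjusted p = 0.0528) and with DESeq2 on the reads recovered from the CPM values (adjusted p = 0.421). Its paralog *Thbs3*, chosen after its values were seen, was at 9.29 ± 0.588 CPM in control and 10.4 ± 1.19 CPM in mutants (SD, n = 2 each), with a fold change of 0.14 on the log2 scale (limma, adjusted p = 0.943).

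*Tnc* encodes tenascin C, which weakens adhesion to fibronectin and is made at sites of epithelial and mesenchymal contact. It was at 3.07 and 5.33 CPM in control against 0.415 and 3.28 CPM in mutant libraries, which is 6, 12, 1 and 7 reads. The lowest value was that of mutant replicate 1, and the groups overlapped. The log2 fold change was −1.04 (95% interval −2.09 to 0.01, limma adjusted p = 0.529), and with reads pooled by group, 18 in control and 8 in mutant, the ratio of levels was 0.412 (exact 95% interval 0.155 to 0.995, which covers counting error only). The fold change of *Tnc* on the log2 scale ran from −0.25 without mutant replicate 1 to −1.84 without mutant replicate 2, and *Tnc* did not pass the test in either case (limma, adjusted p = 0.979 and 0.232).

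The largest change of the set was that of *Vtn*, which encodes vitronectin, an adhesive glycoprotein of plasma and matrix that is made chiefly in the liver and binds αv integrins. It was at 5.62 and 7.10 CPM in control (11 and 16 reads) and 1.25 and 0.468 CPM in mutant libraries (3 reads and 1 read). Both mutant values were far below both control values, and the lowest was in the library that holds the *Afp* and *Ttr* transcripts. The log2 fold change of *Vtn* was −2.01 (95% interval −2.95 to −1.07, limma adjusted p = 0.0247). Since the pseudocount of 1 CPM is close to these levels, the ratio of the pooled reads is given too, which was 0.137 (exact 95% interval 0.0349 to 0.394, which covers counting error only). Without control replicate 2 its adjusted p was 0.188 and without mutant replicate 2 it was 0.150 (limma), with log2 fold changes of −1.87 and −1.71. With a pseudocount of 0.1 CPM the change was −2.88 (limma, adjusted p = 0.0601) and with 5 CPM it was −0.96 (limma, adjusted p = 0.0175), and DESeq2 on the recovered reads gave −2.90 with an adjusted p of 0.837.

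**Figure D2:**
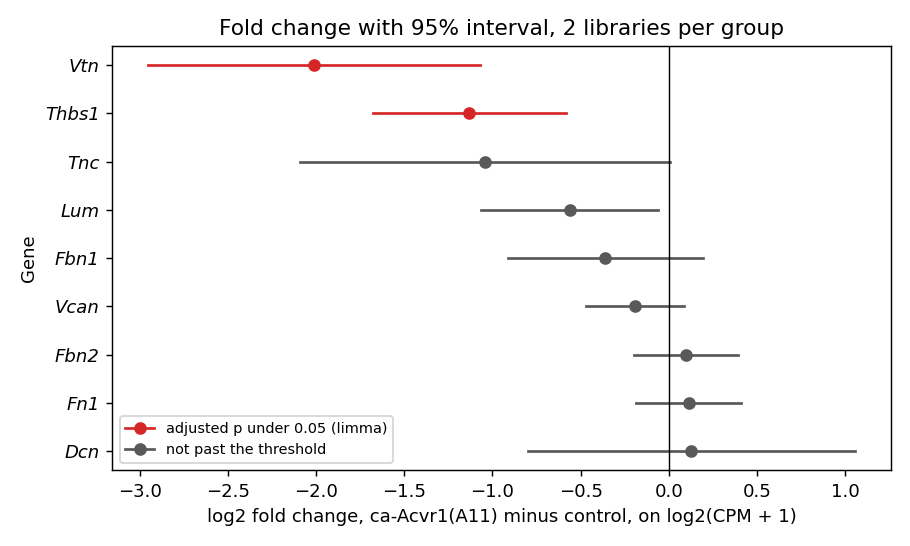
Log2 fold change of each matrix gene (point) with its 95% interval from limma (line), ca-Acvr1(A11) minus control, 2 libraries per group. The intervals of Vtn (−2.95 to −1.07) and Thbs1 (−1.68 to −0.58) lie below 0 and those of Vcan, Fbn2 and Fn1 are narrow and include 0.

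Among the proteoglycans, *Vcan*, which encodes the large hyaluronan-binding proteoglycan versican, was the most abundant gene of the set. It was at 423 and 466 CPM in control against 377 and 400 CPM in mutant libraries. Both mutant values lay below both control values, by a margin of the same order as the distance between replicates. The log2 fold change was −0.19 (95% interval −0.47 to 0.08, limma adjusted p = 0.722). In pooled reads, 1876 in control and 1763 in mutant, the ratio of levels was 0.870 (exact 95% interval 0.815 to 0.929, which covers counting error only).

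*Lum* and *Dcn*, which encode the small leucine-rich proteoglycans lumican and decorin, are neighbors on chromosome 10, with 46985 bases between them. *Lum* was at 36.3 and 58.2 CPM in control against 23.2 and 40.7 CPM in mutant libraries, and *Dcn* at 2.04, 3.99, 2.49 and 4.21 CPM in the same order. In each group the library numbered 2 held more of both transcripts, and the groups overlapped for both. *Lum* had a log2 fold change of −0.56 (95% interval −1.06 to −0.06, limma adjusted p = 0.439) and did not pass the test with all libraries. It did without control replicate 1, at −0.90 (limma, adjusted p = 0.0114). Without control replicate 2 it was −0.23 and without mutant replicate 1 it was −0.17 (limma, adjusted p = 0.949 and 0.959), and without mutant replicate 2 it was −0.95 (limma, adjusted p = 0.0513). *Dcn* had a log2 fold change of 0.13 (95% interval −0.80 to 1.06, limma adjusted p = 0.964), which rests on 13 reads in control and 15 in mutant libraries.

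Across the 9 genes, both mutant libraries lay below both controls for 4, *Fbn1*, *Thbs1*, *Vtn* and *Vcan*, beside 16.8% of all genes tested, and above both for 1, *Fbn2*, by under 1 CPM, beside 21.9%. At an unadjusted p under 0.05 from limma 3 of the 9 were lower, *Vtn*, *Thbs1* and *Lum*, beside 4.12% of all genes, and 0 were higher, beside 5.42%. edgeR's quasi-likelihood test and limma-voom on recovered reads tested 7 of the 9, without *Tnc* and *Dcn*. With edgeR 2 of the 7 were called lower and 0 higher, where 1.2% of genes were called, 0.818% lower and 0.384% higher. With limma-voom the counts were 2 lower and 0 higher, beside 1.12% of genes in all, 0.749% lower and 0.374% higher. DESeq2, which tested all 9, called 0 in either direction, beside 0.184% and 0.0516%. The summed level of the 9 genes was 938 and 1002 CPM in control against 839 and 959 CPM in mutant libraries, groups that overlapped.

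Other non-collagen matrix genes were taken from 6 lists written by hand, with 73 genes of which 55 were listed and 52 tested. Of the 52 genes 1 was lower, *Tgfbi*, and 0 were higher (limma). *Tgfbi* was also the 1 gene called of the 35 that edgeR and limma-voom tested and of the 55 that DESeq2 tested. By unadjusted p under 0.05 from limma 10 were lower and 6 higher. Of the 52 genes 26 lay above 0 and 26 below, and the median log2 fold change was −0.02. *Tgfbi*, whose product is an integrin-binding matrix protein related to periostin, went from 59.0 ± 17.7 to 19.4 ± 6.31 CPM (SD, n = 2 each), or −1.56 on the log2 scale (SE 0.24, limma adjusted p = 0.000397). Its 4 values were 46.5 and 71.5 CPM in control against 14.9 and 23.9 CPM in mutant libraries, with no overlap.

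The list of elastic fiber and microfibril genes, whose products assemble with the fibrillins, had 9 of 12 genes below 0, a median of −0.35 and none called in either direction (limma). At an unadjusted p under 0.05 it had 3 genes lower, *Emilin1*, *Mfap4* and *Fbln2*, and 0 higher. These 3 genes, named after their values were seen, had log2 fold changes of −1.05, −0.99 and −0.83 (limma, adjusted p = 0.110, 0.215 and 0.263), and none overlapped between groups. *Emilin1* passed the test without control replicate 1 and without mutant replicate 2 (limma, adjusted p = 0.00205 and 0.0214). *Mfap2*, the most abundant of the list and a fibrillin-binding protein, was at 53.8 ± 17.5 and 42.7 ± 5.16 CPM (SD, n = 2 each), with groups that overlapped and an adjusted p of 0.726 from limma.

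Partners of versican were in the list of hyaluronan aggregates, of which 7 were tested and none was called (limma). *Tnfaip6*, whose product binds hyaluronan, was the most abundant, at 110 ± 13.6 and 80.3 ± 4.30 CPM (SD, n = 2 each), or −0.45 on the log2 scale (limma, adjusted p = 0.295). *Has2*, the main hyaluronan synthase of the embryo, and *Hapln1*, which links versican to hyaluronan, were chosen after their values were seen. Their log2 fold changes were −0.53 and −0.39 (limma, adjusted p = 0.434 and 0.508). For each of these 3 genes both mutant values lay below both controls, and at an unadjusted p under 0.05 these were the 3 lower genes of the list, with 0 higher. Not all genes of this list fell, since 3 of the 7 were above 0 and 4 below, with a median of −0.06. Those above 0, named after their values were seen, were *Has3* (0.91), *Cd44* (0.33) and *Ncan* (0.24) (limma, adjusted p = 0.631, 0.799 and 0.856). Both mutant values of *Has3* lay above both controls, on at most 6 reads in a library, and *Cd44* and *Ncan* overlapped between groups.

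In the other 4 lists the medians were 0.10 for 14 matricellular genes, 0.27 for 4 small leucine-rich proteoglycans, 0.23 for 9 linkers of the basement membrane and 0.05 for 6 other glycoproteins. Apart from *Tgfbi* none of their genes was called by limma, and at an unadjusted p under 0.05 they held 6 higher and 4 lower, *Tgfbi* among the latter. *Bgn* (biglycan), the most abundant small leucine-rich gene besides *Lum*, had a log2 fold change of 0.34, *Nid1* (nidogen 1) of −0.10 and *Edil3* of −0.40 (limma, adjusted p = 0.837, 0.910 and 0.804).

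Enzymes and inhibitors that remodel the matrix, with 24 genes tested, had a median of −0.21, and 19 of the 24 were below 0. None was called by limma, and at an unadjusted p under 0.05 there were 3 lower and 1 higher. The most abundant was *Timp3*, a matrix-bound inhibitor of metalloproteases, at 171 ± 19.0 and 165 ± 18.0 CPM (SD, n = 2 each), which overlapped between groups. Of the proteases that cut versican, chosen by that role after their values were seen, *Adamts1*, *Adamts9* and *Adamts20* had log2 fold changes of −0.19, 0.05 and −0.20 (limma, adjusted p = 0.85, 0.986 and 0.927). Others of this family in the list, *Adamts4*, *Adamts5* and *Adamts15*, also named after their values were seen, came to −0.31, −0.59 and −0.22 (limma, adjusted p = 0.848, 0.740 and 0.883). Both mutant values of *Adamts4* lay below both controls, and *Adamts5* and *Adamts15* overlapped between groups.

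Among 14 receptors that bind these proteins none was called by limma, and the median was 0.22. At an unadjusted p under 0.05 there was 1 lower and 0 higher. *Itgb1*, the β subunit of the main fibronectin receptors, was at 201 ± 33.1 and 181 ± 8.93 CPM (SD, n = 2 each). Of the 14 genes 10 were above 0 and 4 below. The subunits of a vitronectin receptor, *Itgav* and *Itgb5*, chosen by that role after their values were seen, had log2 fold changes of 0.26 and −0.45 (limma, adjusted p = 0.837 and 0.432). *Itgb5* was the 1 gene lower at an unadjusted p under 0.05. *Itgb3*, another β subunit chosen by the same role after its values were seen, came to 0.60 (limma, adjusted p = 0.741). It was at 2.04 and 2.22 CPM in control against 3.74 and 3.74 CPM in mutant libraries. *Cd47*, a receptor of thrombospondin 1 chosen in the same way, came to 0.11 (limma, adjusted p = 0.938).

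**Figure D3:**
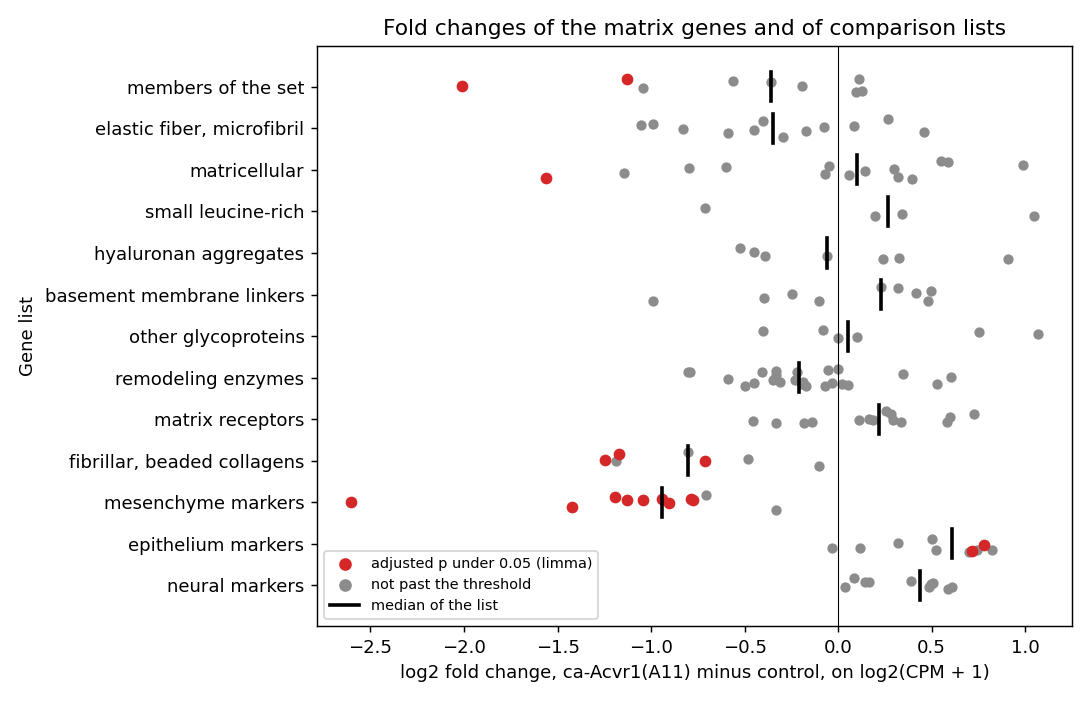
Log2 fold changes (ca-Acvr1(A11) minus control) of single genes, as points by list, with the median of each list as a black bar and genes with an adjusted p under 0.05 from limma in red. The median of the matrix genes described here (−0.36) lies between those of the mesenchyme markers (−0.94) and of the receptors (0.22), and the collagens are all below 0.

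Collagens of the same mesenchyme are given beside these genes for comparison. All 7 fibrillar and beaded collagens tested were below 0, with a median of −0.80, and 3 were called lower, *Col1a2*, *Col1a1* and *Col3a1*, with log2 fold changes of −1.25, −1.17 and −0.71 (limma, adjusted p = 1.75e-06, 0.0171 and 0.0271). Without control replicate 2 the calls of *Col1a1* and *Col3a1* were lost (limma, adjusted p = 0.0819 and 0.264), as they were without mutant replicate 1 (limma, adjusted p = 0.183 and 0.330). The 95% interval of *Col1a2*, −1.52 to −0.97, does not overlap that of *Vcan*, −0.47 to 0.08, or that of *Fn1*, −0.19 to 0.41, and the difference between these genes was not tested in a model of its own. In control libraries *Col1a2*, at 579 CPM, was above *Vcan*, at 444 CPM, and in mutant libraries it was below, at 243 against 388 CPM. This order held in each library.

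Markers of other cell types were read for the whole lists. Of 8 endothelium markers none was called by limma, with a median of −0.10 and 0 in either direction at an unadjusted p under 0.05, and *Kdr* was at 51.3 ± 4.09 and 48.4 ± 5.55 CPM (SD, n = 2 each). Of 7 mural cell markers tested 1 was lower, *Pdgfrb*, whose mutant values are no whole numbers of reads, with a median of 0.29 and sums of 129 to 130 CPM in control and 76.8 to 82.2 CPM in mutant libraries. *Pdgfrb* alone had means of 64.6 CPM in control and 21.2 CPM in mutant libraries. It is not particular to mural cells in this tissue, since the paper places PDGFRβ beside PDGFRα in facial mesenchyme. The sums of the list therefore do not measure mural cells alone. Of the 7 markers 4 were above 0 and 3 below. Of 7 macrophage markers 1 was higher, *Mrc1*, with a log2 fold change of 1.34 (limma, adjusted p = 0.0411) and a list median of 0.60, and its call was lost without control replicate 1 and without either mutant replicate (limma, adjusted p = 0.0805, 0.0777 and 0.315). No erythroid, liver or skeletal muscle marker was called by limma, with *Hbb-y* at −0.17 and *Tnnt1* at 0.25, and at an unadjusted p under 0.05 only *Afp* of the liver list, at 2.74, passed, which was −0.49 without mutant replicate 2 (limma, adjusted p = 0.996).

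The level of each matrix gene was also set against the summed CPM of 10 mesenchyme markers (the list without *Pdgfra*) in the same library, a measure chosen after the values were seen. The sum in mutant libraries was 0.51 of that in control, and 87.6% of all genes tested were higher in both mutant libraries on this scale, with a median ratio of 1.97, and 0.642% were lower in both. *Fn1*, *Fbn2* and *Dcn* had ratios of 2.08, 2.07 and 2.22, close to that median, *Vcan* of 1.70 and *Fbn1* of 1.46, and in each of these 5 genes the groups did not overlap. *Lum* (1.34), *Thbs1* (0.885) and *Tnc* (0.864) overlapped between groups. *Vtn*, at 0.489 and 0.481 CPM per 100 CPM of markers in control and 0.190 and 0.0684 in mutant libraries, was the 1 member lower in both, with a ratio of 0.266. On the same scale *Col1a2* was at 0.818 and *Tgfbi* at 0.649, with groups that did not overlap.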

How the data were processed

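RNA was extracted by the authors from E11.5 NP tissues with TRIzol, and 3′ libraries (QuantSeq, Lexogen) were sequenced on an Illumina platform. The submitters' processing notes name STAR, featureCounts 1.6.4, DESeq2 and mm10. Annotation, strand setting and filter are not given in the sources used here. The authors deposited CPM values for 13577 genes, scaled to library totals. There were 33470 empty lines and 0 unused columns of values. Each listed gene with whole reads has 3 or more reads in all, from 2 or more libraries.

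The reads behind each value were recovered from the step between low CPM values within a tolerance of 0.02 reads, and 99.92% of values came out whole. The submitters' values were used as deposited. limma 3.58.1 (R 4.3.3) was fitted to log2(CPM + 1) of 12462 genes with a mean above 1 CPM, with a variance trend, two-sided tests and Benjamini-Hochberg adjustment at 0.05, and it was tested on simulated data. A fold change on this scale understates that of low genes. edgeR 4.0.16, which called 122 genes, DESeq2 1.42.0, which called 32, and limma-voom, which called 114, were run on recovered reads of genes without values that are not whole. Other alternatives were 3 scalings, 2 pseudocounts, 2 filters, a replicate block and the omission of each library. Python 3.11.15 with pandas 2.3.3 and scipy 1.17.1 was used for summaries.

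The 10 genes and the comparison lists were chosen with earlier results of these data known. Of 207 list entries 179 matched, 3 of them through the RefSeq gene number. Named were the 10 genes, and of each other list up to 3 called genes with the smallest p or, with none called, the gene with the highest mean CPM. Genes outside this rule are said to be. Intervals of pooled reads are exact Clopper-Pearson intervals at 95%. Markers of 8 further cell types or tissues were written as lists.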

Additional observations from a re-analysis of the deposited data

How the results depend on the processing

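The median log2 fold change of the 9 matrix genes stayed below 0 in all 16 alternatives (−0.41 to −0.17), and in 0 of them was a member called higher. The count of members called lower, 2, was 0 with a pseudocount of 0.1 CPM and with DESeq2, 1 with at least 10 reads in every library (where *Vtn* was not tested), and 0 to 3 with each library left out. Without the 22 genes that hold values that are not whole reads, 38 genes were called higher and 62 lower. With all genes, 38 were called higher and 74 lower. These counts were 7 and 25 with DESeq2, and 32 to 241 and 56 to 221 with each library left out, the highest of both without control replicate 1. The other matrix genes called higher, 0, came to 0 to 2 with each library left out, with 2 without control replicate 1 (*Sparc* and *Agrn*), and those called lower, 1, to 1 to 2, with 2 without control replicate 1 and without mutant replicate 2 (*Tgfbi* and *Emilin1* in both). *Tgfbi* was called lower in all 16 alternatives. With each library left out, the log2 fold change of *Fn1* ran from −0.061 (without mutant replicate 2) to 0.29 and that of *Dcn* from −0.23 (without control replicate 1) to 0.49, with −0.16 for *Dcn* without mutant replicate 2. Most genes named outside the set were read in the same alternatives after the data had been seen. Those not read there included *Itgb3*, *Adamts4*, *Adamts5*, *Adamts15*, *Has3*, *Cd44* and *Ncan*. With each library left out, the genes read that changed sign were *Mfap2* (−0.63 to 0.038), *Bgn* (−0.17 to 0.85), *Edil3* (−0.81 to 0.0067), *Adamts9* (−0.070 to 0.18), *Adamts20* (−0.53 to 0.14), *Timp3* (−0.17 to 0.058), *Itgb1* (−0.31 to 0.031), *Kdr* (−0.20 to 0.030), *Tnnt1* (−0.030 to 0.52), *Afp* (−0.49 to 5.96) and *Ttr* (−1.23 to 4.99). The cause was not tested.

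Replicate numbers are shared by the groups in the labels, which do not say that they mark a litter or batch. Deviations of same-numbered libraries from their group means correlated across 12462 genes with r = 0.0671, so that the numbers were not taken to pair the libraries. With the number as a replicate block, 97 genes were called higher and 132 lower, 2 members lower and 2 of the other matrix genes lower. *Vtn*, *Tnc* and *Dcn*, with at most 16 reads in a library, have the widest intervals of the set.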

Other observations

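In each group *Lum*, *Dcn* and *Tnc* were higher in the library numbered 2. On the log2(CPM + 1) scale the distances were 0.67, 0.71 and 0.64 in control and 0.78, 0.58 and 1.6 in mutant libraries. *Vcan* (0.14 in control and 0.082 in mutant libraries) and *Fbn2* (0.022 and 0.17) were higher there too, by less. The share of all genes with this pattern was not counted. For *Lum* and *Dcn* these distances between replicates exceed the log2 fold change between groups. *Thbs1* differed by 0.72 in control and by −0.70 in mutant libraries.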
